A study of Saccharomyces cerevisiae with 12 samples.

Results

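The proteasome is the large protease that destroys proteins marked with ubiquitin, and its genes were followed here in budding yeast, Saccharomyces cerevisiae, whose histone H3 supply could be shut off. The set held 33 genes, chosen by their systematic names: 14 subunits of the 20S core particle, 18 subunits of the 19S cap, and RPN4, the transcription factor of proteasome genes. All 33 were found among the 7127 features counted in each library. All 33 also passed the filter on low counts, which left 6354 genes for testing. The 20S genes divide into 7 of the alpha ring and 7 of the beta ring. The 19S genes divide into 10 of the base, counting the ubiquitin receptors RPN10 and RPN13, and 8 of the lid.

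Poly(A) RNA was sequenced from 4 groups of 3 biological replicates. H3i YPD was the H3 shut-off strain (DGS200.1) moved to glucose medium, and H3i YPGal the same strain in galactose medium. WT YPD and WT YPGal were wild-type yeast, labelled YEF4734A, in the same media. H3i was made from YEF473A by deleting HHT1, one of the paired H3 genes, and placing the other, HHT2, under the GAL1 promoter, which works in galactose and is shut in glucose. Per the labels' protocols all cultures were grown in YPGal first, and cells were then moved to YPD. How long cells stayed in YPD is not stated in the labels. In H3i the change of sugar and the loss of H3 transcription come together, so that WT in the same media is the reference for the sugar alone.

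Some facts about the libraries bear on what follows. HHT2 read 14.7 and 30.3 CPM (gene counts scaled to a common library total) in H3i YPD and 3694 and 2284 CPM in H3i YPGal (replicates 1 and 3), and HHT1 had 0 counts in those H3i YPD libraries. Gene totals were smallest in replicate 1 (2176277 to 2525223), followed by replicate 3 (8649749 to 11628815) and replicate 2 (40950610 to 52278567). Replicate 2 lacks counts for many genes that the other replicates read well, so tests used only replicates 1 and 3, that is 8 libraries with n = 2 in each group, and replicate 2 is described apart. Both WT libraries of replicate 3 went against the other libraries in marker genes: they read HIS3 at 21.9 (YPD) and 22.7 CPM (YPGal) and MF(ALPHA)1 at 2325 (YPD) and 2464 CPM (YPGal), and had 0 counts of LEU2 and URA3. In the 10 other libraries HIS3 had 0 counts, URA3 lay at 96.6 CPM or more, and MF(ALPHA)1 reached at most 105 CPM. Results that involve WT are therefore also given without them.

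In the 20S core, stacked rings enclose the cutting sites, which belong to some of the beta subunits, while the alpha rings form the gate. The 19S cap receives ubiquitin-marked proteins, removes the ubiquitin, and unfolds and feeds the chain into the core with a ring of ATPases. Yeast makes the subunits in step because most of their genes carry the proteasome-associated control element, a short DNA sequence bound by Rpn4. Rpn4 is itself a short-lived substrate of the proteasome, so that a shortage of proteasomes raises Rpn4 and, through it, the subunit genes.

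The element was searched as the 9 letters GGTGGCAAA on both strands, from 250 bases before to 50 after each start codon in the R64 (sacCer3) genome of RefSeq. It was found in 27 of 32 subunit windows (84.4%), against 71 of 5988 windows of all genes (1.19%). PRE5, PUP1, RPN8, RPN10 and RPN13 lacked the 9 letters. The 8-letter core GTGGCAAA, which lies within the 9 letters, was found in 30 of 32 subunit windows (93.8%) and in 2.39% of all windows, and RPN10 and RPN13 lacked it too. The window of RPN4 held neither. Each of the 27 windows had 1 site, 84 to 183 bases before the start codon with a median of 120, on the gene's own strand in 19 genes and on the opposite strand in 8. The sites are printed below with 10 bases on each side and the element in capitals, read on the strand that spells the element. They belong to the 5 subunit genes with the lowest fold changes in H3i YPD against H3i YPGal and the 5 with the highest. The capitals are the letters searched for, so their likeness follows from the search. PUP1 and PRE5 have only the 8-letter core, which is capitalised there.
PUP1: acccggccgaGTGGCAAAataccaaaaa
PRE2: acagcaaaagGGTGGCAAAacgaagaata
PRE5: ctattatagaGTGGCAAAattaaaaatt
PUP3: tggcactgccGGTGGCAAAaaagtgcaaa
PRE10: cctctaaatcGGTGGCAAAaataagaaag
RPN9: gctttcatccGGTGGCAAAagtaagaaca
RPN12: aatttcaatgGGTGGCAAAtaatgtgtag
PRE6: tttcccttccGGTGGCAAAagaatcttcg
RPN1: tgtgttttacGGTGGCAAAaggcgagcac
PRE8: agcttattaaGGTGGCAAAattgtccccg

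These stretches lie upstream of the start codons. The PUP1 site is at chrXV:631891-631918 on the minus strand and begins 157 bases before the start codon, and the PRE2 site is at chrXVI:732184-732212 on the plus strand, 155 bases before it. The RPN9 site, of the gene at the other end of the range, is at chrIV:1322086-1322114 on the plus strand, 109 bases before the start. The RPN12 site (chrVI:252398-252426) and the PRE6 site (chrXV:255218-255246) are spelled on the minus strand, opposite to their genes. A match of letters is a description of the window and not evidence that Rpn4 was bound.

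The comparison of H3i YPD against H3i YPGal shows the shut-off together with the change of sugar. Of the 33 genes 22 fell, 0 rose and 11 were not called (edgeR quasi-likelihood test, Benjamini-Hochberg adjusted p under 0.05, 8 libraries). Over all genes tested the same rule called 22.2% lower and 21.4% higher. The median log2 fold change of the 32 subunits was −0.85, against 0.03 for all genes, and 31 of 32 lay below the median of all genes. Counts are relative to the other transcripts of a bulk culture, in which fewer cells with a transcript and less of it per cell cannot be told apart. Log2 fold changes are scaled by TMM, which sets the typical gene near 0. Scaled by library totals instead, the median of all genes moved by 0.39, to 0.42, and 69.7% of all calls were higher, against 49.1% with TMM. On that scale 11 of the 33 genes were called lower, against 13.8% of all genes, and RPN9 alone was called higher, against 31.9% of all genes. The subunit median was then −0.45, and 31 of 32 subunits again lay below the median of all genes.

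**Figure D1:**
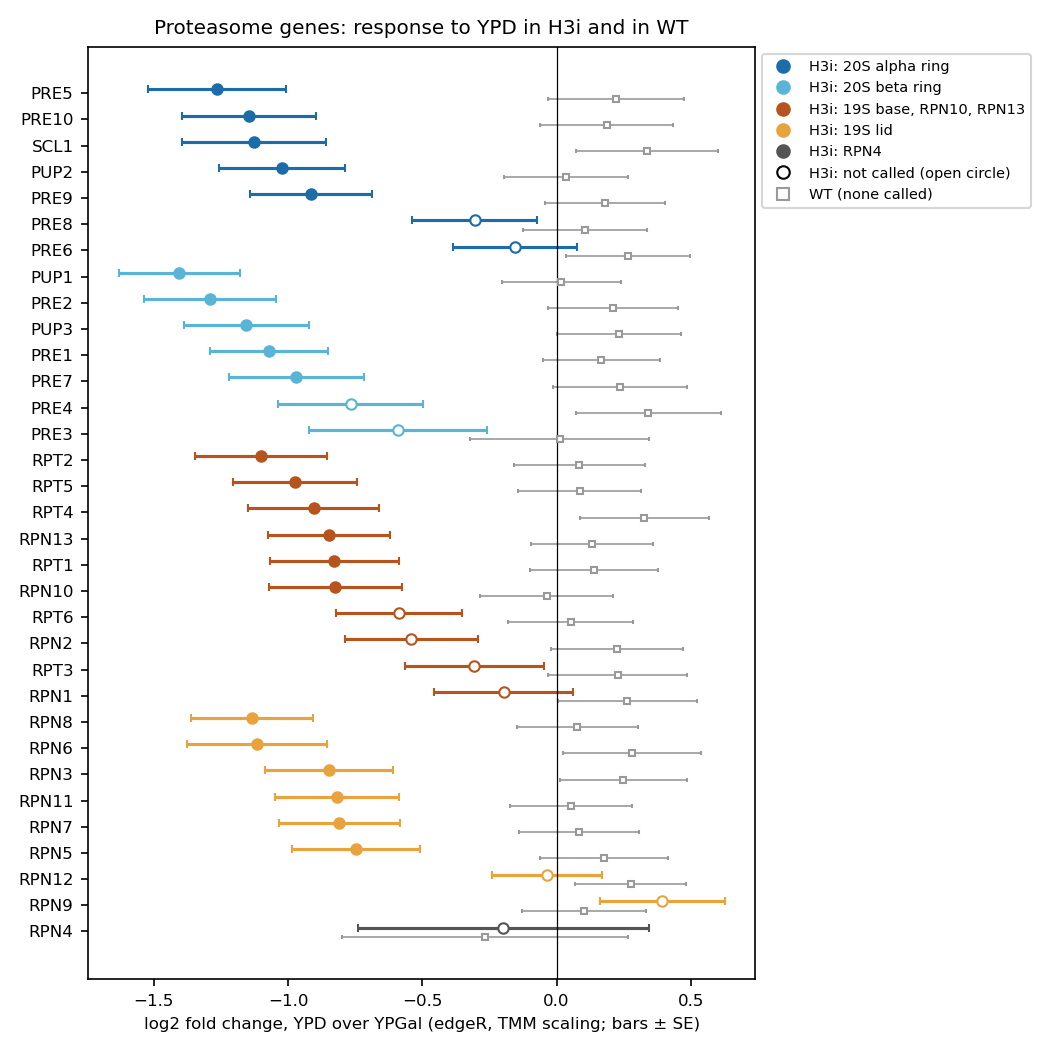
Log2 fold change of each of the 33 genes in YPD over YPGal (x axis; edgeR, TMM scaling, bars ± SE, 8 libraries), with H3i as circles and WT as grey squares. In H3i the 22 filled circles are the genes called lower, down to −1.40 for PUP1, and RPN9 at 0.39 is the only subunit right of 0. In WT none was called, and values lie between −0.27 and 0.34.

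Of the active-site genes of the beta ring, PUP1 and PRE2 had the lowest fold changes of the 33 genes, and PRE3 the highest of the ring. PUP1 (YOR157C, chrXV:630966-631751), which carries the trypsin-like site, had 91.4 and 88.6 CPM in H3i YPD, 174.9 and 187 CPM in H3i YPGal, 172 and 129.8 CPM in WT YPD, and 167 and 166 CPM in WT YPGal (replicates 1 and 3). Both H3i YPD libraries lay below all 6 others. PUP1 fell by 1.40 ± 0.23 on the log2 scale (± SE; 0.378-fold; adjusted p = 0.00334). PRE2 (YPR103W, chrXVI:732349-733212), which carries the chymotrypsin-like site, had 169 and 232 CPM in H3i YPD, 320.2 and 426 CPM in H3i YPGal, 346 and 378 CPM in WT YPD, and 307 and 405 CPM in WT YPGal. Its H3i YPD libraries too lay below the 6 others, and it fell by 1.29 ± 0.24 (adjusted p = 0.0055). PRE3 (YJL001W), which carries the caspase-like site, was at 237 and 227 CPM in H3i YPD, 251 and 277 CPM in H3i YPGal, 278 and 142 CPM in WT YPD, and 314 and 159 CPM in WT YPGal. The WT libraries of PRE3 spanned those of H3i. The low ones, at 142 and 159 CPM, were those of replicate 3, which went against the other libraries in marker genes. The fold change of PRE3 of −0.59 ± 0.33 was not called (adjusted p = 0.186).

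The other beta genes, which have no cutting site, mostly fell as well. PUP3 (−1.16 ± 0.23), PRE1 (−1.07 ± 0.22) and PRE7 (−0.97 ± 0.25) were called. PRE4 (−0.77 ± 0.27) missed the threshold by little (adjusted p = 0.0512). In all, 5 of 7 beta genes fell, with a median of −1.07.

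In the alpha ring 5 of 7 genes fell, with a median of −1.02, and 2 stood apart. PRE5 (YMR314W) had 153 and 143 CPM in H3i YPD, 273 and 268 CPM in H3i YPGal, 315 and 199 CPM in WT YPD, and 280.4 and 212 CPM in WT YPGal. It fell by 1.26 ± 0.26 (adjusted p = 0.00692), with both H3i YPD libraries below the other 6. PRE10 (−1.15 ± 0.25), SCL1 (−1.13 ± 0.27), PUP2 (−1.02 ± 0.23) and PRE9, the alpha gene that yeast can live without (−0.92 ± 0.23), were the others called. PRE6 (YOL038W), whose product takes the place of Pre9 in cells that lack it, had 401 and 425 CPM in H3i YPD, 347 and 352 CPM in H3i YPGal, 349 and 327 CPM in WT YPD, and 329.5 and 303 CPM in WT YPGal. Its H3i YPD libraries were the highest of the 8 in CPM, while its TMM-scaled fold change was −0.15 ± 0.23 (adjusted p = 0.616) and turned to 0.24 with library totals. PRE8 stood at −0.31 ± 0.23 (adjusted p = 0.32; 0.09 with library totals).

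In the 19S base 6 of 10 genes fell, with a median of −0.83. RPT1 to RPT6 encode the ATPase ring that unfolds substrates. RPT2 (−1.10 ± 0.25), RPT5 (−0.97 ± 0.23), RPT4 (−0.91 ± 0.24) and RPT1 (−0.83 ± 0.24) fell, and RPT6 (−0.59 ± 0.23, adjusted p = 0.0774) and RPT3 (−0.31 ± 0.26, adjusted p = 0.372) were not called. RPT2 (YDL007W), whose product helps open the gate of the core, had 253 and 272 CPM in H3i YPD, 339 and 533 CPM in H3i YPGal, 369 and 443 CPM in WT YPD, and 404 and 452 CPM in WT YPGal. The H3i YPD libraries of RPT2 lay below the 6 others. RPN1 and RPN2, the large scaffolds that dock ubiquitin-binding shuttles and the receptor Rpn13, were not called (−0.20 ± 0.26 and −0.54 ± 0.25).

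The ubiquitin receptor genes RPN13 (−0.85 ± 0.23) and RPN10 (−0.82 ± 0.25) fell, and both differed more between replicates than between groups. RPN10 (YHR200W) had 221 and 109 CPM in H3i YPD, 306 and 144 CPM in H3i YPGal, 272 and 87.7 CPM in WT YPD, and 285 and 114 CPM in WT YPGal (replicates 1 and 3). Every replicate 1 library of RPN10 read higher than every replicate 3 library, which was made with other extraction and library kits. RPN13 (YLR421C) showed the opposite, with 84.5 and 137 CPM in H3i YPD, 94.3 and 224 CPM in H3i YPGal, 119 and 183 CPM in WT YPD, and 109 and 211 CPM in WT YPGal. For these genes the fall is one within each replicate number, since the groups overlap.

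In the 19S lid 6 of 8 genes fell, with a median of −0.81. RPN8 (YOR261C), the partner of the deubiquitinase, had 163 and 254 CPM in H3i YPD, 265 and 431 CPM in H3i YPGal, 248 and 495 CPM in WT YPD, and 311 and 449 CPM in WT YPGal. It fell by 1.13 ± 0.23 (adjusted p = 0.00673), and the H3i YPD libraries lay below those of H3i YPGal but overlapped those of WT YPD. RPN11, the deubiquitinase that strips ubiquitin from substrates, fell by 0.82 ± 0.23 (adjusted p = 0.0226). RPN6 (−1.12 ± 0.26), RPN3 (−0.85 ± 0.24), RPN7 (−0.81 ± 0.23) and RPN5 (−0.75 ± 0.24), which are scaffold subunits of the lid, were called too.

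RPN9 and RPN12 are also lid scaffolds, and they did not follow the others. RPN9 (YDR427W, chrIV:1322205-1323386) had 374 and 456 CPM in H3i YPD, 179.9 and 319 CPM in H3i YPGal, 169.9 and 330.3 CPM in WT YPD, and 203 and 304 CPM in WT YPGal. Both H3i YPD libraries lay above all 6 others, and the fold change of 0.39 ± 0.23 was not called with TMM (adjusted p = 0.205), though 0.79 was called with library totals. RPN12 (YFR052W) had 237 and 253 CPM in H3i YPD, 174 and 208 CPM in H3i YPGal, 160.0 and 216 CPM in WT YPD, and 178 and 167 CPM in WT YPGal. Its H3i YPD libraries too were the highest of the 8, and its TMM-scaled fold change was −0.04 ± 0.21 (adjusted p = 0.901; 0.36 with library totals).

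In CPM, with no test, 17 of the 33 genes had both H3i YPD libraries below both H3i YPGal libraries, 12 overlapped and 4 lay above. Of the 33, 13 had both H3i YPD libraries below all 6 others. The 3 that lay above all 6 others were PRE6, RPN9 and RPN12. The same counts were not made over all genes, so whether these are unusual cannot be said. As a share of all gene counts, the 32 subunit genes together took 0.832% and 0.943% in H3i YPD, 0.977% and 1.31% in H3i YPGal, 1.01% and 1.11% in WT YPD, and 0.995% and 1.11% in WT YPGal.

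**Figure D2:**
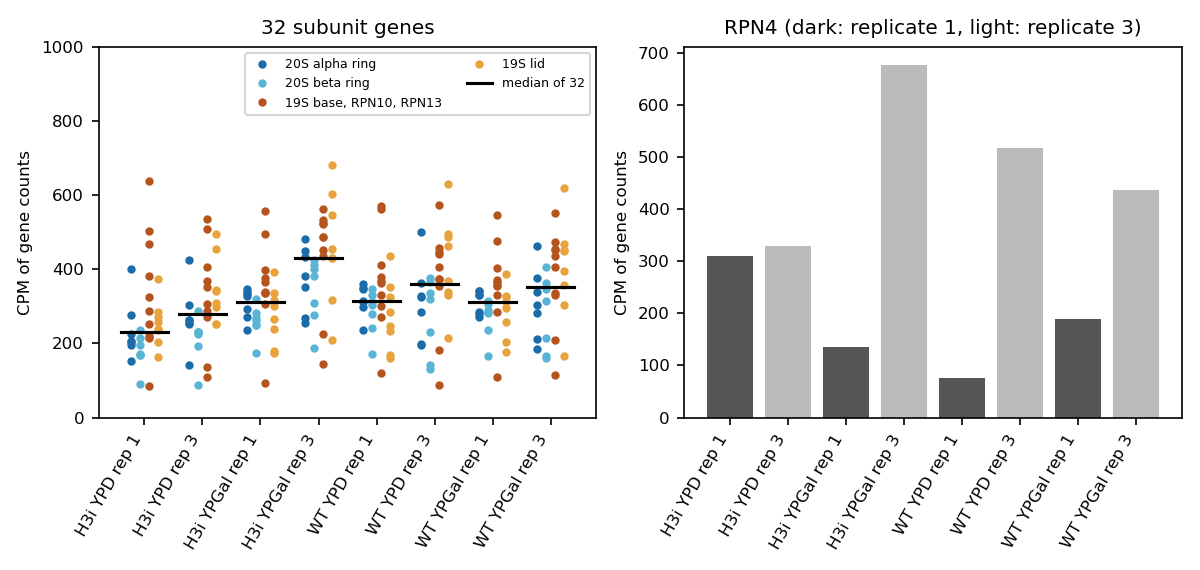
Left, CPM of the 32 subunit genes in each of 8 libraries (points coloured by subcomplex, bar at the median); right, CPM of RPN4 in the same libraries (dark, replicate 1; light, replicate 3). The subunit medians are 231 and 279.9 CPM in H3i YPD and lie between 312 and 431 CPM in the other 6 libraries, while RPN4 differs more between replicates than between groups.

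RPN4 (YDL020C, chrIV:415113-416708), the activator of these genes, was not called. It had 309.7 and 329 CPM in H3i YPD, 135 and 677 CPM in H3i YPGal, 76.5 and 516 CPM in WT YPD, and 189 and 435 CPM in WT YPGal. In replicate 1 it was 2.29 times as high in H3i YPD as in H3i YPGal, and in replicate 3 it was 0.487 times as high, so the replicates moved in opposite directions. The fold change of −0.20 ± 0.54 was not called (adjusted p = 0.79), and with 1 library left out it ran from −1.34 (without H3i YPD replicate 1) to 0.61 (without H3i YPD replicate 3), with 0.20 without H3i YPGal replicate 3. Its error is more than 1.5 times that of any subunit gene, so a change of RPN4 of the size seen in the subunits was not detectable here. The Rpn4 protein was not measured. Of 6 genes for factors that act on RPN4 or share its control, 1 rose (16.7%) and 0 fell, where 21.4% of all genes rose and 22.2% fell. The gene that rose was PDR3, an activator of RPN4 (2.13 ± 0.39, adjusted p = 0.00489). HSF1, the heat shock factor (0.48 ± 0.20), PDR1 (0.28 ± 0.24) and YAP1 (−0.63 ± 0.25), which also act on RPN4, and the drug pumps PDR5 (0.34 ± 0.37) and SNQ2 (0.39 ± 0.28), which PDR1 and PDR3 control, were not called.

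The calls rest on 2 libraries per group and on which of them are kept. For fits with libraries left out, here and in the comparisons below, the share of all genes called was not set beside the counts. Whether a drop in calls is particular to these genes can therefore not be said. The 22 genes called lower became 9 without H3i YPGal replicate 1, 8 without H3i YPD replicate 1, 3 without H3i YPGal replicate 3 and 13 without H3i YPD replicate 3. PUP1 and PRE2 were called whichever of the 8 libraries was left out, and all 22 stayed below 0. With all 12 libraries 0 of the 33 genes were called, by a fit that called 0.0624% of all genes in either direction (edgeR, 0 of the 33 at an unadjusted p under 0.05 too).

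Replicate 2 was read gene by gene because its losses are uneven. Of the 32 subunits, those read at under 10% of the mean of the other replicates numbered 10 in H3i YPD (31.2%), 14 in H3i YPGal (43.8%), 16 in WT YPD and 14 in WT YPGal (43.8%). The same share over all genes read at 50 CPM or more was 21.8% in H3i YPD, 46.8% in H3i YPGal, 41.4% in WT YPD and 45.9% in WT YPGal. SCL1, for one, had 1.76 CPM in H3i YPD and 1.18 CPM in H3i YPGal in replicate 2, where both its H3i YPD libraries of the other replicates read over 200 CPM. In 18 subunits both H3i libraries of replicate 2 were readable, and 15 of the 18 were lower in H3i YPD, with a median CPM ratio of 0.640. The same ratio was below 1 in 25 of 32 subunits in replicate 1 (median 0.786) and in 28 of 32 in replicate 3 (median 0.683). Such counts by replicate, here and in the comparisons below, were not made over all genes. CPM in replicate 2 also depends on which other genes lost counts. Readable means at 10% or more of the mean of the other replicates, so a partial loss can remain, here and below. Of the 22 genes called lower 15 were readable in replicate 2 and 14 of these were lower there, all but RPN5. PRE2 had 416.5 CPM in H3i YPD and 831 CPM in H3i YPGal of replicate 2, and RPN9 had 961 CPM in H3i YPD and 58.7 CPM in H3i YPGal. In H3i YPGal of replicates 1 and 3 RPN9 read 179.9 and 319 CPM.

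**Figure D3:**
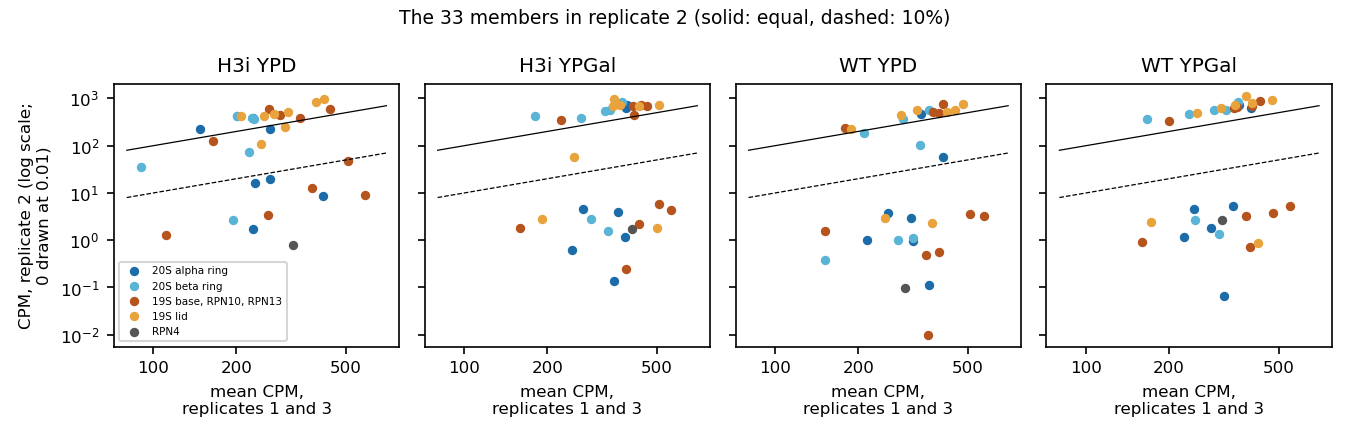
CPM of each of the 33 genes in replicate 2 (y axis, log scale) against its mean CPM in replicates 1 and 3 (x axis, log scale), by group; the solid line marks equal values and the dashed line 10%. In every group some genes lie near or above the solid line and others below the dashed one, many of them far below. Below the dashed line are 10 subunits in H3i YPD and 14 to 16 in the other groups. Genes also lie between the lines, such as PUP1 in H3i YPD, PRE9 in WT YPD and RPN9 in H3i YPGal.

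WT was compared between the same media to show what the sugar did where H3 was made. Of the 33 genes 0 were called, with 0 at an unadjusted p under 0.05 and 0 by DESeq2, where edgeR called 0.677% of all genes lower and 0.0944% higher. The subunit values ran from −0.04 to 0.34 with a median of 0.18, against 0.01 for all genes. PUP1 stood at 0.02 ± 0.22, PRE2 at 0.21 ± 0.24 and RPN4 at −0.27 ± 0.53. Without both WT libraries of replicate 3 the subunit median lay 0.28 above that of all genes, in place of 0.17, and 0 of the 33 genes were called. Replicate 2 differed: 12 subunits were readable in both of its WT libraries, and all 12 were lower in WT YPD than in WT YPGal, with a median ratio of 0.695.

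The difference between these responses, H3i minus WT, was tested as an interaction. It was negative and called in 16 of the 33 genes and positive and called in 0, where 14.5% of all genes were called negative and 13.1% positive. The 16 were 10 of the 14 core genes and 6 of the 18 cap genes, with PRE2 at −1.5 ± 0.34 (adjusted p = 0.0181), PRE5 at −1.49 ± 0.36 (0.0217) and PUP1 at −1.42 ± 0.32 (0.0168) among the lowest. RPN9 was at 0.29 ± 0.33 and RPN4 at 0.07 ± 0.77, and neither was called. The count of 16 was less firm than the count of 22: it was 9 without both WT libraries of replicate 3 (8 of them among the 16), and it ranged from 0 to 8 when 1 library was left out. It was 0 when WT YPD replicate 1 or either H3i YPGal library was left out. It was 2 without H3i YPD replicate 1, 5 if WT YPGal replicate 1 was dropped, 7 if WT YPD replicate 3 was dropped, and 8 if WT YPGal replicate 3 or H3i YPD replicate 3 was dropped. All 16 stayed below 0 in each of these.

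H3i was also compared with WT in each medium. In YPGal, where H3i makes H3 from the GAL1 promoter, 0 of the 33 genes were called, with 0 at an unadjusted p under 0.05 and 0 by DESeq2; the edgeR test called 0% of all genes there. Subunit values ran from −0.19 to 0.39, with a median of 0.08. Leaving out both WT libraries of replicate 3 again gave 0 calls among the 33. In YPD 23 of the 33 genes were lower in H3i and 0 higher, where 23.7% of all genes were lower and 26% higher. This comparison shares its H3i YPD libraries with the comparison of media in H3i, so the pair of counts is not independent. The subunit median was −1.04 against 0.10 for all genes, with PRE2 at −1.48 ± 0.25 (adjusted p = 0.00242), RPN8 at −1.40 ± 0.23 (0.00228) and PRE5 at −1.38 ± 0.26 (0.00404) lowest. PRE4 (−0.92 ± 0.27, adjusted p = 0.0243) and RPN2 (−0.78 ± 0.25, 0.0313) were called here and not between media, and RPN10 (−0.61 ± 0.25, 0.074) the other way round. With library totals 7 of the 33 were lower, against 12.6% of all genes, and 1, RPN9, was higher, against 42.9% of all genes. The count of 23 was 20 without both WT libraries of replicate 3, 10 without WT YPD replicate 1 and 15 without H3i YPD replicate 1. The CPM ratio of H3i YPD to WT YPD was below 1 in 25 of 32 subunits in replicate 1 (median 0.717) and in 23 of 32 in replicate 3 (median 0.797). Replicate 2 was divided: 14 subunits were readable in both libraries, 8 of them lower and 6 higher in H3i YPD (median 0.896). PRE9 (3.96) and PRE7 (3.73), both called lower, were among those higher there. Their WT YPD levels in replicate 2 were low: 56.5 CPM for PRE9, against 313 and 500 CPM in replicates 1 and 3. PRE7 read 104 CPM there, against 303 and 366 CPM. Whether these ratios follow from a partial loss of counts was not tested.

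Across all genes the change in H3i YPD against H3i YPGal moved with level and with gene length, and the subunit genes lie where many genes fell. All 32 subunits had a mean of 100 to 1000 CPM, and of the 2803 genes in that range 36.1% were called lower, with a median of −0.38 against −0.85 for the subunits. Among 2314 genes shorter than 1 kb 36.3% were called lower with a median of −0.47, and 13 of 18 such subunits, with a median of −0.94. Among 2219 genes of 1 to 2 kb 20.9% were lower with a median of −0.03, and 9 of 12 such subunits, with a median of −0.84. Among 798 genes of 2 to 3 kb 8.40% were lower, and neither RPN1 nor RPN2, the only subunits of that length, was called. Across genes the fold change had a Spearman rho with length of 0.265 in the 32 subunits and 0.272 in the 5856 tested genes with a known length. With level it was 0.161 in the subunits and −0.446 in the same 5856 genes. Genes measured in the same libraries are not independent. The part that level and length have in the result was not tested.

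**Figure D4:**
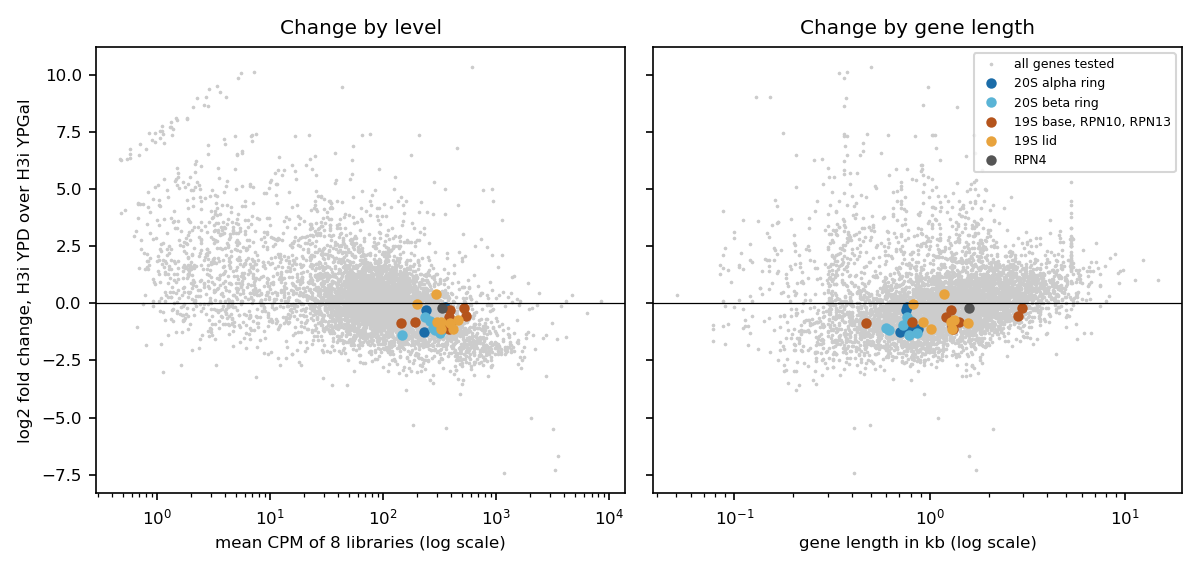
Log2 fold change in H3i YPD over H3i YPGal (y axis) against mean CPM of 8 libraries (left, log scale) and gene length in kb (right, log scale), for all genes tested in grey and the 33 genes coloured by subcomplex. The 32 subunits all sit between 100 and 1000 CPM, where 36.1% of all genes were called lower, and RPN1 and RPN2 are the rightmost of them by length.

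Levels per kb of gene length show how even the subunit genes were. Their median was 229 and 294 CPM per kb in H3i YPD, 292 and 392 in H3i YPGal, 298 and 324 in WT YPD, and 301 and 339 in WT YPGal. The coefficient of variation over the 32 genes was 31.8% and 30.6% in H3i YPD and between 27.7% and 35.9% in the other 6 libraries. In H3i YPD the lowest gene per kb was PUP1, at 116 and 113 CPM per kb, and the highest was PRE6, at 524 and 556. That puts PRE6 4.50 and 4.93 times as high as PUP1, where the highest gene was 2.95 to 5.93 times as high as the lowest in the other 6 libraries. In the alpha ring, whose proteins are used in equal number, the highest gene was 2.41 and 2.74 times as high as the lowest in H3i YPD, 1.44 and 1.82 times in H3i YPGal, 1.46 and 2.49 times in WT YPD, and 1.22 and 2.43 times in WT YPGal.

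The response was set beside the Rpn4 element. Of the 27 subunits with the 9 letters 17 fell, with a median of −0.83 and values from −1.29 to 0.39. The 5 without them, PRE5, PUP1, RPN8, RPN10 and RPN13, all fell, with a median of −1.13. RPN9 (0.39, not called) and PUP3 (−1.16, called lower) both carry the 9 letters, printed above. The part that the element has in the response was not tested. Outside the set 44 genes had the 9 letters in their window, and 5 of these fell and 13 rose, with a median of 0.28. Of 5767 other genes without them 23.6% fell and 20.8% rose. For 7 of the 44 the site is the very one of a subunit gene that is read the other way, and 2 of these 7 rose and 0 fell. MPO1, which shares the site of SCL1, rose (1.15 ± 0.34), while SCL1 fell by 1.13. ALG13, which shares the site of RPT6, rose by 0.94. YOL038C-A (0.93), YTH1 (0.37), GCD1 (0.29), NOP14 (0.26) and YPI1 (0.11), which share sites with PRE6, RPN7, RPT4, RPN5 and RPN11, were not called. The 8 of the 44 genes with the largest change at 10 CPM or more went in both directions. SDH9 (4.49), YBR284W (4.17), DOC1 (1.72), ABZ1 (1.51), ECM29 (1.46) and ATG14 (1.46) rose, and GSF2 (−2.31) and CCT6 (−1.37) fell.

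**Figure D5:**
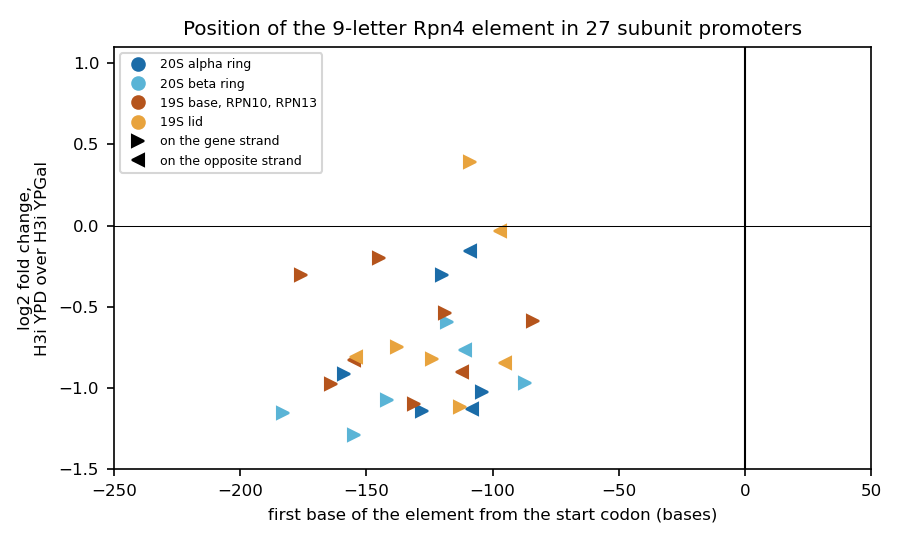
Log2 fold change in H3i YPD over H3i YPGal (y axis) against the position of the 9-letter element from the start codon (x axis, bases) for the 27 subunits that carry it; right-pointing triangles are sites on the gene's strand. Sites lie 84 to 183 bases before the start codon and the genes range from −1.29 to 0.39, with RPN9 alone above 0.

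Other genes of the pathway were called in both directions. Of 16 genes for assembly factors and proteins that bind the proteasome, 3 rose (18.8%) and 2 fell (12.5%), with a median of −0.17, where 21.4% of all genes rose and 22.2% fell. HUL5, a ubiquitin ligase at the proteasome (1.85 ± 0.31), ECM29, which ties core and cap together (1.46 ± 0.21), and BLM10, an alternative cap (0.76 ± 0.22), rose. SEM1, a small lid component that was not counted among the 33 (−1.76 ± 0.23), and NAS6, a chaperone of base assembly (−0.80 ± 0.21), fell. The core chaperone genes UMP1 (−0.69 ± 0.27) and PBA1 (0.47 ± 0.35) were not called.

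Of 32 genes of the ubiquitin and Cdc48 system 8 rose (25.0%) and 5 fell (15.6%), with a median of −0.06, which is also near the shares over all genes. Among the 8 called genes with the largest absolute change were DDI1, a shuttle with a protease-like domain (2.23 ± 0.33), HUL4 (1.72 ± 0.40), TOM1 (1.47 ± 0.24) and UBR1 (1.08 ± 0.21), which are ubiquitin ligases, and DOA4, a deubiquitinase (1.59 ± 0.23), all of which rose. The others of the 8 fell: DSK2, a ubiquitin shuttle (−1.24 ± 0.25), UBC5 (−1.18 ± 0.32) and UBC4 (−0.99 ± 0.26), which are ubiquitin-conjugating enzymes. UBC4 and UBC5 are near copies, so that reads could be split between them. UBR2, the ligase that marks Rpn4 for destruction, rose (0.92 ± 0.30, adjusted p = 0.0402), while MUB1, its partner (−0.50 ± 0.20), and RAD6, its conjugating enzyme (−0.61 ± 0.26), were not called. UBI4, which encodes a chain of linked ubiquitins and is known to be induced by stress, had 1475 and 909 CPM in H3i YPD, 503 and 593 CPM in H3i YPGal, 90.4 and 106 CPM in WT YPD, and 565 and 367 CPM in WT YPGal. Both H3i YPD libraries were the highest of the 8 and both WT YPD libraries the lowest. UBI4 was not called between media in H3i (0.69 ± 0.30, adjusted p = 0.104), fell in WT (−2.05 ± 0.32, 0.0366) and was higher in H3i than in WT in YPD (2.96 ± 0.33, 0.000818). TOM1, UBR1, UBR2, ECM29 and BLM10 are longer than 3 kb, and 48.95% of all genes of that length were called higher in this comparison.

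Genes outside the set were ranked by how closely they tracked the subunits, so the top ones are high by selection. For every r given here log2 CPM were scaled by TMM, unlike the CPM given above. The TMM factors were highest in H3i YPD (1.194 and 1.385 in replicates 1 and 3). The 8 genes whose log2 CPM correlated best with the mean of the 32 subunits over the 8 libraries, of 5572 compared, were RTN1 (r = 0.997), YKL033W-A (0.985), CCT2 (0.982), PKR1 (0.981), TAT1 (0.980), ERG11 (0.980), PUB1 (0.980) and DUS4 (0.978). These values describe 8 libraries of 4 groups that share depth and kits, and 411 genes exceeded 0.9. Among the 33, r with the mean of the subunits other than the gene itself was highest in PUP3 (0.993), PRE10 (0.991) and RPT1 (0.987). It was low in RPN12 (0.317) and RPN4 (−0.08), and lowest in RPN9 (−0.59).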

How the data were processed

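The values deposited by the authors are raw counts of reads per gene, 1 file a library. The submitters' processing notes name sacCer3 as the build and, as tools, HISAT2, SAMtools, Picard, FastQC and DESeq2. Tool versions, the counter and its strand setting were not given in the sources used here. Per the labels' protocols, libraries were made with stranded mRNA kits, and replicate 3 had another extraction and library kit than replicates 1 and 2. Entries that name no gene held most in replicate 2 (66.3% to 74.5% of counts), less in replicate 1 (27.5% to 38.6%) and replicate 3 (22.0% to 33.7%), and were left out of gene totals. The highest share of each replicate was that of H3i YPD. The next highest was 28.1% in replicate 1 (WT YPD), 71.9% in replicate 2 (H3i YPGal) and 24.7% in replicate 3 (WT YPD). What this does to the fold changes was not tested. No spike-in is described.

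The test was the quasi-likelihood test of edgeR 4.0.16 (limma 3.58.1, R 4.3.3) after TMM and filterByExpr, with terms for the 4 groups and for the kit, on 8 libraries (3 residual degrees of freedom). The threshold was a Benjamini-Hochberg adjusted p under 0.05 over 6354 genes. Replicate 2 was left out of this fit because earlier results of these data had shown its loss of counts (common coefficient of variation 1.13 with it, 0.273 without). The code was tested on simulated counts. The p-values measure the spread left between replicates 1 and 3, which differ in kits.

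Whether replicate numbers pair libraries was checked from each library's deviations from its group mean. Over 18 same-number pairs r ran from 0.351 to 0.794, and the best match of every library (12 of 12) had its own number. With 8 libraries, kit term and replicate block are one and the same.

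The 33 genes and all lists were chosen with earlier results of these data known. Named besides the 33 are up to 8 called genes per pathway list, up to 8 others with the Rpn4 element, and the 8 that correlate best with the subunit mean. Genes that share a site with a subunit, list members named as not called, UBR2, UBI4, and the largest and smallest values singled out were chosen after their values were seen. Alternatives were 12 libraries, another block, DESeq2 1.42.0, library totals, no filter, only the groups compared, and leaving out libraries. Symbols, lengths and sequence are from RefSeq R64, the same assembly as sacCer3. None of the 33 genes (0) overlaps another annotated feature.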

Additional observations from a re-analysis of the deposited data

Results flagged for a closer look

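By the interaction test (edgeR, adjusted p under 0.05, 8 libraries) 16 of the 33 proteasome genes were called different between H3i and WT. All 16 had a lower response to the change of medium in H3i. The same test called 14.5% of all genes lower and 13.1% higher. The difference of log2 fold changes, H3i minus WT, was −1.5 in PRE2, −1.49 in PRE5, −1.47 in SCL1, −1.42 in PUP1, −1.40 in RPN6, −1.39 in PUP3, −1.33 in PRE10, −1.24 in PRE1, −1.23 in RPT4, −1.21 in RPN8, −1.21 in PRE7, −1.19 in RPT2, −1.10 in PRE9, −1.10 in RPN3, −1.06 in PUP2 and −1.06 in RPT5. None of these 16 calls was kept whichever library was left out (0), though all 16 stayed below 0.

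Among the named genes of the wider pathway the difference was −1.64 in UBC4, −1.48 in SEM1 and −1.17 in DSK2. It was 1.07 in UBR1, 1.29 in ECM29, 1.44 in TOM1, 1.74 in DOA4, 1.77 in HUL5, 1.95 in PDR3, 2.22 in HUL4 and 2.53 in DDI1. It was 2.73 in UBI4, the highest of the ubiquitin and Cdc48 genes, which was named after its values were seen.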

How the results depend on the processing

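For H3i YPD against H3i YPGal, the 22 genes called lower were 25 by DESeq2 (0 higher), 22 with only the groups compared, 23 without a filter and 22 without both WT libraries of replicate 3. They were 6 with no replicate block, 0 with all 12 libraries and 2 (PRE2 and RPT2) with all 12 libraries and a replicate block, where the subunit median minus that of all genes was −1.15 in place of −0.87. With library totals they were 11, and 1 was higher. Leaving out 1 library gave 3 to 23, and medians of −1.01 to −0.80. The 16 genes of the interaction were 23 by DESeq2, 0 with no replicate block, 0 with 12 libraries (median −0.96 in place of −1.13), 0 with 12 libraries and a replicate block (−1.30), 1 with library totals, 9 without both WT libraries of replicate 3, and 0 to 8 without 1 library (−1.18 to −1.04). For H3i against WT in YPD the 23 were 25 by DESeq2, 14 with no replicate block, 0 with 12 libraries (−0.91 in place of −1.14), 2 with 12 libraries and a replicate block (−1.30), 7 with library totals and 1 higher, and 10 to 23 without 1 library (−1.22 to −0.98). In WT the median difference was 0.17, −0.037 with 12 libraries, 0.046 with their replicate block, 0.28 without both WT libraries of replicate 3 and 0.032 to 0.29 without 1 library, with 0 genes called under each. The causes were not tested, beyond that fewer libraries leave fewer degrees of freedom. For most of these fits the share of all genes called was not given. Whether the counts moved more in these genes than in all genes can therefore not be said.

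Directions in H3i YPD against H3i YPGal reversed to positive with 12 libraries and a replicate block in PRE5 (2.46), PRE4 (2.06), PRE8 (1.86), RPN2 (1.16), RPN12 (1.0), RPT6 (0.67), PRE6 (0.41), RPN6 (0.32) and PUP2 (0.11), which replicate 2 reads at very low counts in H3i YPGal. With library totals they reversed in RPN12 (0.36), PRE6 (0.24), RPN4 (0.21), RPN1 (0.20), RPT3 (0.09) and PRE8 (0.089). RPN12 was 0.44 and RPN4 0.11 with 12 libraries, and RPN12 0.013 by DESeq2. Over all libraries left out in turn RPN4 ran from −1.34 to 0.61, with 0.20 without H3i YPGal replicate 3 and 0.61 without H3i YPD replicate 3. Each replicate taken alone, a window of 500 bases (27 subunits with the element, as before) and bins by length and level were chosen after seeing the data. Depth does not limit the subunit genes in replicates 1 and 3, which read 184 counts or more in each. The number of replicates (n = 2) limits every test.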
